A study of Homo sapiens with 47 samples.

Results

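The expression of 10 genes for inflammatory cytokines and chemokines, IL1B, IL1A, IL6, CXCL8, CXCL1, CXCL2, CXCL3, LIF, IL11 and CSF2, was assessed in single circulating tumor cells (CTC) and in cultured cells of the same tumor line. These are 10 of the 25739 genes with expression values, and all 10 had a value. The genes were listed by name with their values in these cells already known, so their differences between CTCs and culture are given as descriptions, without a test. The cells were LM2, a metastatic derivative of the established human triple-negative breast cancer line MDA-MB-231, labeled with GFP. For the CTC group, LM2-GFP cells had been placed in a mammary fat pad (the fourth) of NSG mice aged 6 to 8 weeks, which lack T, B and NK cells but keep neutrophils and other myeloid cells, and blood was drawn once the tumor was large. CTCs were enriched from whole blood by size on a microfluidic cassette, told apart from blood cells by a CD45 stain and GFP, and picked one by one. For the LM2 cell line group, cells were picked from tissue culture. Each cell gave 1 full-length SMARTseq2 library without molecular identifiers. Values were available for 37 CTCs of 5 mice (2 CTCs of mouse 5541, 4 of mouse 5542, 10 of mouse 5545, 17 of mouse 5546 and 4 of mouse 5549) and for 6 cultured cells. The mouse was the replicate for CTCs, while the 6 cultured cells are 1 sample with no replicate of the culture.

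Interleukin 1β (IL1B) and interleukin 1α (IL1A) are upstream inflammatory cytokines that act through the IL-1 receptor and NF-κB, and this signal induces many of the other genes. CXCL8, CXCL1, CXCL2 and CXCL3 are ELR+ CXC chemokines that attract neutrophils through CXCR1 and CXCR2. IL6, LIF and IL11 belong to a cytokine family that signals through gp130 (IL6ST) and STAT3, and CSF2 encodes GM-CSF, a growth factor for granulocytes and macrophages. MDA-MB-231 cells are known in culture for secretion of several of these factors, and IL6, CXCL8 and IL11 are known for their study in breast cancer metastasis.

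The 4 CXCL genes lie in a cluster on chromosome 4, and all 4 were highest among CTCs in 5542-4 and 5549-6. A stretch of their promoters is given here with those of IL6 and IL11, which were highest in other CTCs. No link between these sequences and the levels was tested. Each sequence is 66 bases, from base -120 to base -55 counted from the RefSeq start of the gene, written 5′ to 3′ on the strand of the gene (RefSeq, GRCh38.p14). Of the 10 genes, 9 matched the promoter table, IL1A with 2 windows, and LIF did not match. Capitals mark matches to the NF-κB consensus or to GGAATTTCC in the CXCL genes and IL6, and to the AP-1 motif TGANTCA in IL11.
CXCL8 (chr4:73740449-73740514, plus strand): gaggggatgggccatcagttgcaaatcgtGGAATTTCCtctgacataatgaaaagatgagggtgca
CXCL1 (chr4:73869273-73869338, plus strand): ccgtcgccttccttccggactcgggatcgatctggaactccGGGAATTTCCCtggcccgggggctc
CXCL2 (chr4:74099250-74099315, minus strand): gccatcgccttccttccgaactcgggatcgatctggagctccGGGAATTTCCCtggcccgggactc
CXCL3 (chr4:74038744-74038809, minus strand): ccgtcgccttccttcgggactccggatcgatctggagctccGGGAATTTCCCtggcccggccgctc
IL6 (chr7:22727080-22727145, plus strand): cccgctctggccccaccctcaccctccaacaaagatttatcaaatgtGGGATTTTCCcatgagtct
IL11 (chr19:55370518-55370583, minus strand): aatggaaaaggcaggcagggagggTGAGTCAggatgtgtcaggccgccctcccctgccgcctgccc
Both strands of the 250 bases before the start were searched. GGAATTTCC is a stretch of the NF-κB site known in CXCL8, so its match there was fixed in advance. It was present in 4 of the 9 genes searched, CXCL8, CXCL1, CXCL2 and CXCL3, and in 0.413% of 35116 promoter windows of the same length. It began at base -91 in CXCL8, at -78 in CXCL1 and CXCL3, and at -77 in CXCL2. The NF-κB consensus of 10 bases was matched in IL6, CXCL1, CXCL2 and CXCL3 and in 9.96% of all windows, and in the 3 CXCL genes it overlapped GGAATTTCC. TGANTCA was found in IL1A, CXCL8 and IL11 and in 6.57% of all windows. These are matches of letters only. None of the printed bases lies in an annotated UTR, though those of CXCL3 fall mostly in the first exon of a longer transcript without a defined coding sequence. The windows of CXCL1, CXCL2 and CXCL3 were alike, with 89.4% to 92.4% identity over the 66 bases, against 47.0% to 50% with CXCL8.

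Reads on genes ranged from 469614 to 2041333 per CTC and from 776949 to 1186197 per cultured cell. A single read was worth 0.324 to 2.12 normalized counts in a CTC and 1.19 to 1.99 in a cultured cell. Genes detected ranged from 2313 to 12299 per CTC and from 7369 to 13679 per cultured cell. All 8 mesenchymal tumor cell markers, VIM among them, were detected in CTCs and in culture. Of 6 epithelial markers, all 6 were detected among CTCs with summed levels of 0 to 2936 per cell, and 4 in culture with 27.6 to 191, where CDH1 and ESRP1 were at 0. Blood cell markers were also present in CTCs. Of 11 leukocyte markers with a value, all 11 were detected among CTCs with summed levels of 21.2 to 2305 per cell, and 5 in culture with 107 to 1512, where PTPRC (CD45), ITGAM, CSF3R, S100A9, TYROBP and FCER1G were at 0. Of 4 erythroid markers, all 4 were detected among CTCs with sums of 0 to 12509, and all 4 were at 0 in culture. Reads were aligned to the human genome alone, while the blood came from mice. Over the 37 CTCs, Spearman's ρ of a cytokine gene with the leukocyte sum ranged from -0.0471 (IL6) to 0.373 (CXCL1). With the erythroid sum it ranged from -0.314 (IL6) to 0.461 (IL1B). The part of blood cell RNA in the cytokine values was not tested, and marker values given beside a result are descriptions.

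The cytokine genes were detected less often in CTCs than in culture. A gene was detected in a cell when its normalized count was above 0. Of the 370 combinations of a gene with a CTC, 132 were detected, against 46 of 60 in the cultured cells. Genes in all were also fewer in CTCs, with a median of 7569 of 25739 detected per CTC and 10189.5 per cultured cell. A CTC had 0 to 8 of the 10 genes, with a median of 3, and 2 CTCs, 5545-6 and 5546-c2, had none. The cultured cells had 4 to 10, with a median of 8, and the cells LM-1, LM-P3 and LM-P4 had all 10. CXCL2 was detected most often, in 24 of 37 CTCs (64.9%, exact 95% binomial interval 47.5% to 79.8%), followed by IL6 in 20, CXCL3 in 18, LIF in 15, CXCL8 in 13, IL1B in 12, CSF2 in 11, CXCL1 in 10, IL11 in 8 and IL1A in 1. The interval covers counting error only, because amplified reads with no identifiers are not single molecules, and CTCs from 1 animal share their source. It overlaps those of IL6 (36.9% to 70.5%) and CXCL3 (31.9% to 65.6%), so the order of these neighbors is not resolved.

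**Figure D1:**
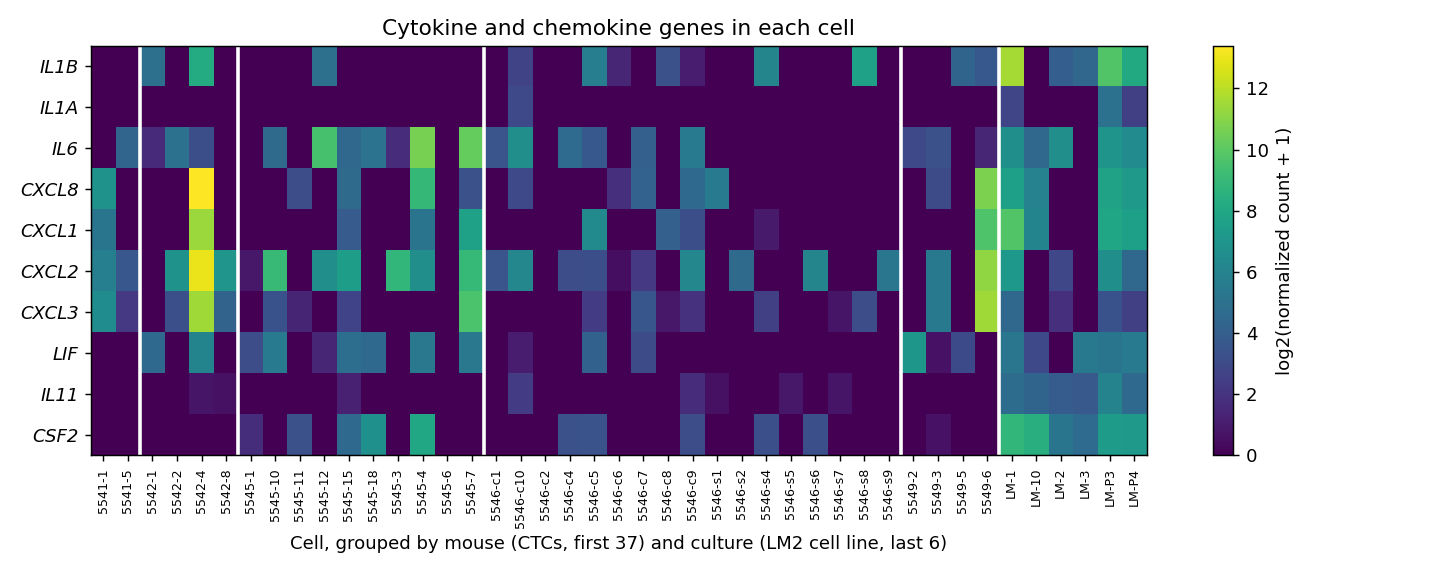
Heatmap of log2(normalized count + 1) for the 10 genes (rows) in 37 CTCs grouped by mouse and 6 cultured LM2 cells (columns), with white lines between groups. IL11 and CSF2 are above 0 in all 6 cultured cells, whereas among the CTCs the 4 CXCL genes are brightest in 5542-4 and 5549-6; for CXCL1 the cultured cell LM-1 (861.4) is above 5549-6 (817.6).

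The cells in which more of the 10 genes were detected tended to have more genes detected in all. Over the 37 CTCs, Spearman's ρ between the number of cytokine genes and all genes detected was 0.475, and it was 0.358 among the 10 CTCs of mouse 5545 and 0.766 among the 17 of mouse 5546. With the number of reads on genes it was 0.0706. In culture the 3 cells with all 10 genes had 11912 to 13679 genes detected, whereas the other 3 had 7369 to 8467. CTC 5542-4 departs from this relation, with 8 of the 10 genes among only 6779 detected. Detection after thinning each cell to 469614 reads was 121 of 370 in CTCs and 45 of 60 in culture.

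**Figure D2:**
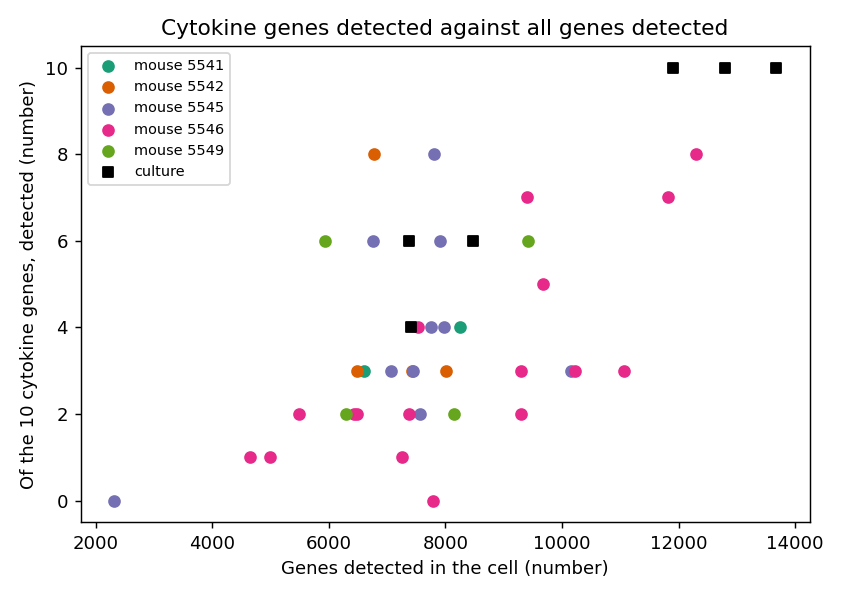
Number of the 10 cytokine genes detected (vertical axis) against the number of all genes detected (horizontal axis) in each of 37 CTCs, colored by mouse, and 6 cultured cells (black squares). The 3 cultured cells with 10 genes lie at 11912 to 13679 genes, and 2 CTCs have 0.

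For the comparison of levels, a fixed rule of size was used. A gene met it when, with 1 added to every mean, the CTC mean lay at least 4-fold from the culture mean on the same side in all 5 mice, and when the larger mean was at least 8. Of the 10 genes, 3 met the rule as lower in CTCs, IL1B, IL11 and CSF2, and 0 as higher. Over all 25739 genes, 1.89% were lower and 0.0155% higher by this rule. Among the 8708 genes with a culture mean of at least 8, 5.59% were lower. Because the genes were chosen with this contrast known, nothing is read from that share. With the size factors of the deposited values the whole table was shifted, and the median log2 ratio of mice to culture was -1.30 over the 12290 genes with a mean of at least 1, so each log2 ratio below should be read against this shift. The median over the 10 genes was -1.96, with 7 lower and 3 higher in the mean over mice. With reads scaled to the same total in every cell (CPM) the median over all genes was -0.61.

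**Figure D3:**
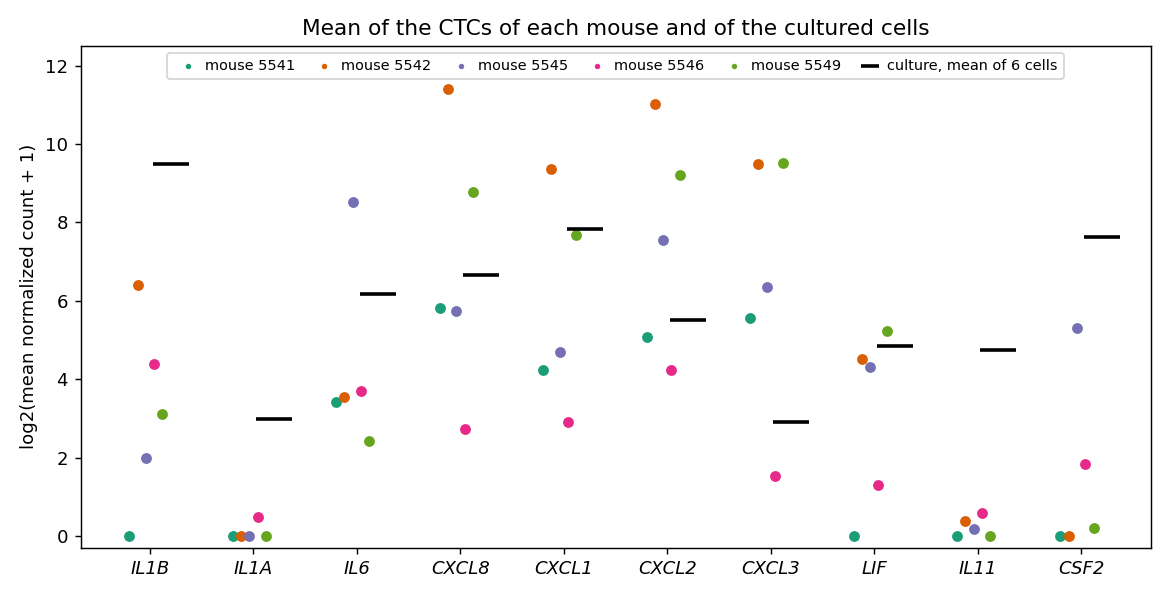
Mean over the CTCs of each mouse (colored points) and over the 6 cultured cells (black bars) for each gene, as log2(mean normalized count + 1). All 5 points are below the bar for IL1B, IL1A, IL11 and CSF2, while 4 of 5 are above it for CXCL3.

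IL1B was high in part of the culture and low in CTCs. In culture it was 3105 normalized counts in LM-1, 859 in LM-P3, 279 in LM-P4, 20.5 in LM-3, 15.1 in LM-2 and 0 in LM-10. The cells with many genes detected were thus the high ones, and LM-1 held 72.6% of the sum over the 6 cells. In CTCs the level was 0 in 25 of 37 cells, with the highest values of 302.6 in 5542-4 and 198.4 in 5546-s8. The means of the mice were 0 in 5541, 2.98 in 5545, 7.67 in 5549, 19.7 in 5546 and 83.1 in 5542, or 22.7 ± 34.6 (SD, n = 5 mice), against a culture mean of 713.3. The mean log2 ratio was -6.30 ± 2.41 (SD, n = 5), and every mouse was lower than the culture mean, although single CTCs overlapped the lower cultured cells. Without LM-1 the mean log2 ratio was -4.71 and IL1B no longer met the rule, because mouse 5542 was then less than 4-fold lower. In 5546-s8, the CTC with the second highest value, the neutrophil gene S100A9 was 239.5 and CSF3R 12.2, and in 5542-4 they were 2.05 and 0.683. The leukocyte sum was 366.3 in 5546-s8, with 5 of 11 markers detected, and 198.8 in 5542-4, with 4. In 5546-s4, the next CTC with IL1B at 67.9, CD14 was 416.0, S100A9 324.2 and CSF3R 27.7, while LYZ and CSF1R were at 0. Its leukocyte sum of 1903, with 9 markers detected, ranked 2 of the 37 CTCs, and its mesenchymal sum of 34016 was the highest. The part of blood cell RNA in these IL1B values was not tested.

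IL1A, which shares its receptor with IL1B, was scarce in both groups. It was detected in 3 of 6 cultured cells, at 30.9 in LM-P3, 5.97 in LM-1 and 4.84 in LM-P4, and in 1 of 37 CTCs, at 6.80 in 5546-c10. The culture mean of 6.95 did not reach the minimum of 8, so IL1A could not meet the rule. With no minimum, IL1A was lower in CTCs by the rule, with a mean log2 ratio of -2.89 ± 0.22 (SD, n = 5).

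IL11 was the only gene of the 10 whose groups did not overlap in single cells. It was 61.7 in LM-P3, 25.9 in LM-1, 22.6 in LM-P4, 19.0 in LM-10, 13.8 in LM-2 and 12.3 in LM-3. In CTCs it was 0 in 29 of 37 cells and at most 4.18, in 5546-c10. All 37 CTCs lay below all 6 cultured cells. How many of all 25739 genes separate in this way was not counted, so nothing is read from this separation. The means were 0 in mice 5541 and 5549, 0.134 in 5545, 0.306 in 5542 and 0.498 in 5546, against 25.9 in culture. In reads this was 18 over all CTCs and 110 over the 6 cultured cells. The mean log2 ratio was -4.52 ± 0.25 (SD, n = 5). At such low CTC levels the ratio depends on the added constant, and with 8 added it was -2.05 and IL11 did not meet the rule.

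CSF2 was likewise detected in every cultured cell. The values were 463.5 in LM-1, 346.5 in LM-10, 160.3 in LM-P3, 145.3 in LM-P4, 36.4 in LM-2 and 24.6 in LM-3. In CTCs it was detected in 11 of 37, and 35 of 37 CTCs lay below all cultured cells. The exceptions were 5545-4 at 250.3 and 5545-18 at 103.7. How many genes in all overlap as little was not counted, so nothing is read from this near separation. The mouse means were 0 in 5541 and 5542, 0.140 in 5549, 2.59 in 5546 and 38.8 in 5545, against 196.1 in culture, and the mean log2 ratio was -6.15 ± 2.28 (SD, n = 5). Mouse 5545 was thus the one nearest to the culture. CSF2 did not meet the rule without LM-1, where the mean log2 ratio was -5.70, nor with CPM, where it was -5.54, and in both cases all mice were lower.

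The gp130 cytokines IL6 and LIF differed less between groups. IL6 was 122.3 in LM-P3, 101.5 in LM-1, 96.6 in LM-2, 87.2 in LM-P4, 22.4 in LM-10 and 0 in LM-3, with a mean of 71.6. Among CTCs, 3 cells of mouse 5545 held 90.7% of the sum, 5545-4 at 1625, 5545-7 at 1216 and 5545-12 at 707.1, and the next CTC, 5546-c10, was at 96.8. Those 3 CTCs exceeded every cultured cell. The mouse means were 4.33 in 5549, 9.66 in 5541, 10.7 in 5542, 12.0 in 5546 and 362.8 in 5545, so that 4 mice were lower than the culture and 1 was higher. The mean log2 ratio was -1.87 ± 2.40 (SD, n = 5), close to the shift of all genes, and without mouse 5545 it was -2.92 and IL6 met the rule as lower. Of the 11 leukocyte markers, 2 were detected in 5545-4 with a sum of 704.2, of which CD74 made up 691.4, 2 in 5545-7 with 209.0 (CD74 at 120.4 and SRGN at 88.5), and 7 in 5545-12 with 384.8, against a median sum of 384.8 over the 37 CTCs. In 5545-12 these included S100A9 at 91.6, TYROBP at 16.4, LYZ at 8.40, FCER1G at 3.78 and CSF3R at 2.10, whereas PTPRC, CD14 and ITGAM were at 0 in all 3 cells. All 8 mesenchymal markers were detected in 5545-4 and 5545-12 and 7 in 5545-7. The part of blood cell RNA in these IL6 values was not tested. IL6 overlaps STEAP1B and IL6-AS1 and LIF overlaps LIF-AS1 and LIF-AS2 on the other strand, and because reads were counted without strand, reads of these pairs cannot be told apart.

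LIF was 45.2 in LM-P4, 42.4 in LM-3, 37.8 in LM-1, 35.6 in LM-P3, 6.90 in LM-10 and 0 in LM-2. Of the CTCs, 15 had LIF, with 137.3 in 5549-2 and 64.9 in 5542-4 as the highest. The means were 0 in mouse 5541, 1.48 in 5546, 18.7 in 5545, 21.9 in 5542 and 36.2 in 5549, against 28.0 in culture. The groups overlapped, and the mean log2 ratio was -1.79 ± 2.28 (SD, n = 5). LIF and IL6 were detected together in 13 CTCs, with LIF alone in 2 and IL6 alone in 7, and ρ between them was 0.539 over 37 CTCs, 0.677 in mouse 5545 and 0.606 in mouse 5546. These correlations are descriptions, since the CTCs share mice, depth and gene number.

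The neutrophil chemokines ranged from 0 to 10735 normalized counts between CTCs. CXCL8 was 10735 in CTC 5542-4, 1745 in 5549-6 and 485.7 in 5545-4, then 110.8 in 5541-1 and at most 47.3 in the other 33, 24 of which had none. In culture it was 205.4 in LM-P3, 189.0 in LM-1, 146.9 in LM-P4, 60.3 in LM-10 and 0 in LM-2 and LM-3. A single CTC held 81.2% of the CXCL8 of all CTCs and 2 CTCs held 94.4%. The mouse means were 5.67 in 5546, 52.7 in 5545, 55.4 in 5541, 438.1 in 5549 and 2684 in 5542, around a culture mean of 100.3, and the mean log2 ratio was 0.23 ± 3.30 (SD, n = 5). Without 5549-6 it was -1.17 and without both 5542-4 and 5549-6 it was -3.45, so its sign depends on these cells.

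CXCL1 was highest in the same 2 CTCs, with 2647 in 5542-4 and 817.6 in 5549-6, and 27 CTCs were at 0. It was next highest in 5545-7 at 202.8, where CXCL8 was 8.85. In 5545-4, the third for CXCL8, CXCL1 was 33.9. In culture it was 861.4 in LM-1, 245.7 in LM-P3, 190.5 in LM-P4, 63.8 in LM-10 and 0 in LM-2 and LM-3. The mouse means were 6.45 in 5546, 17.7 in 5541, 25.0 in 5545, 204.4 in 5549 and 661.8 in 5542, against 226.9 in culture. The mean log2 ratio was -2.06 ± 2.67 (SD, n = 5), and without 5542-4 and 5549-6 it was -5.47 and CXCL1 met the rule as lower.

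CXCL2 was the most widespread of the 4 chemokine genes in CTCs and exceeded the culture mean of 44.7 in 14 CTCs. It was 8050 in 5542-4 and 2336 in 5549-6, and 518.6 in 5545-10, 507.3 in 5545-7 and 461.9 in 5545-3, all above the highest cultured cell, LM-1 at 141.2. The other cultured cells were at 99.7 in LM-P3, 21.0 in LM-P4, 6.27 in LM-2 and 0 in LM-3 and LM-10. The mouse means were 17.9 in 5546, 32.7 in 5541, 185.3 in 5545, 594.6 in 5549 and 2073 in 5542, with 3 mice higher and 2 lower than the culture. The mean log2 ratio was 1.90 ± 2.82 (SD, n = 5). Without 5542-4 and 5549-6 it was -0.09, which is 1.33 above the median of all genes in the same cells.

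CXCL3 was low in culture, with 21.9 in LM-1, 9.50 in LM-P3, 4.84 in LM-P4, 2.51 in LM-2 and 0 in LM-3 and LM-10. In CTCs it reached 2887 in 5549-6, 2834 in 5542-4 and 782.7 in 5545-7, and 10 CTCs were above the culture mean of 6.46. The mouse means were 1.89 in 5546, 46.5 in 5541, 79.9 in 5545, 715.4 in 5542 and 732.1 in 5549, so that 4 of 5 mice were more than 4-fold higher and mouse 5546 was lower. In each of the 4 higher mice 1 CTC set most of the mean. Mouse 5541 had 89.4 and 3.62 in its 2 CTCs. The medians over CTCs were 0 in 5545, 13.6 in 5542 and 20.5 in 5549. The mean log2 ratio was 3.59 ± 3.30 (SD, n = 5), 2.46 without 5549-6, 1.23 without both 5542-4 and 5549-6, and 0.55 with medians over cells in place of means. Without mouse 5546 it was 4.83, and CXCL3 then met the rule as higher.

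The 2 CTCs with the highest chemokine levels differed in their markers. In 5542-4 the 10 genes took 2.19% of the reads of the cell, of which the 4 CXCL genes took 2.15%, and in 5549-6 the 10 genes took 0.796%, whereas the highest cultured cell, LM-1, had 0.278%. In 5542-4, 4 of the 11 leukocyte markers were detected with a sum of 198.8, mostly SRGN at 169.4, PTPRC, CD14 and TYROBP were at 0, and the summed mesenchymal markers were 31301, the third highest of 37 CTCs, with VIM at 19142. In 5549-6, S100A9 was 567.8, LYZ 128.2, TYROBP 101.6, PTPRC 19.98 and CXCR1 21.6, and the summed leukocyte markers of 995.8 were the third highest. The same cell had the highest sum of erythroid markers (12509) and the lowest sum of mesenchymal markers (5622), with LGALS1 at 19.98 and FN1 and SPARC at 0. Of the 8 mesenchymal markers 6 were detected in it, with VIM at 4195, AXL at 557.8, CAV1 at 461.3, CD44 at 288.1 and EGFR at 99.9. Of the 11 leukocyte markers 9 were detected, while ITGAM and CSF1R were at 0. The markers of 5549-6 thus go in part with and in part against the label of a tumor cell. The part of blood cell RNA in the chemokine values of 5549-6 was not tested. In 5542-4 the erythroid sum was 2079.

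**Figure D4:**
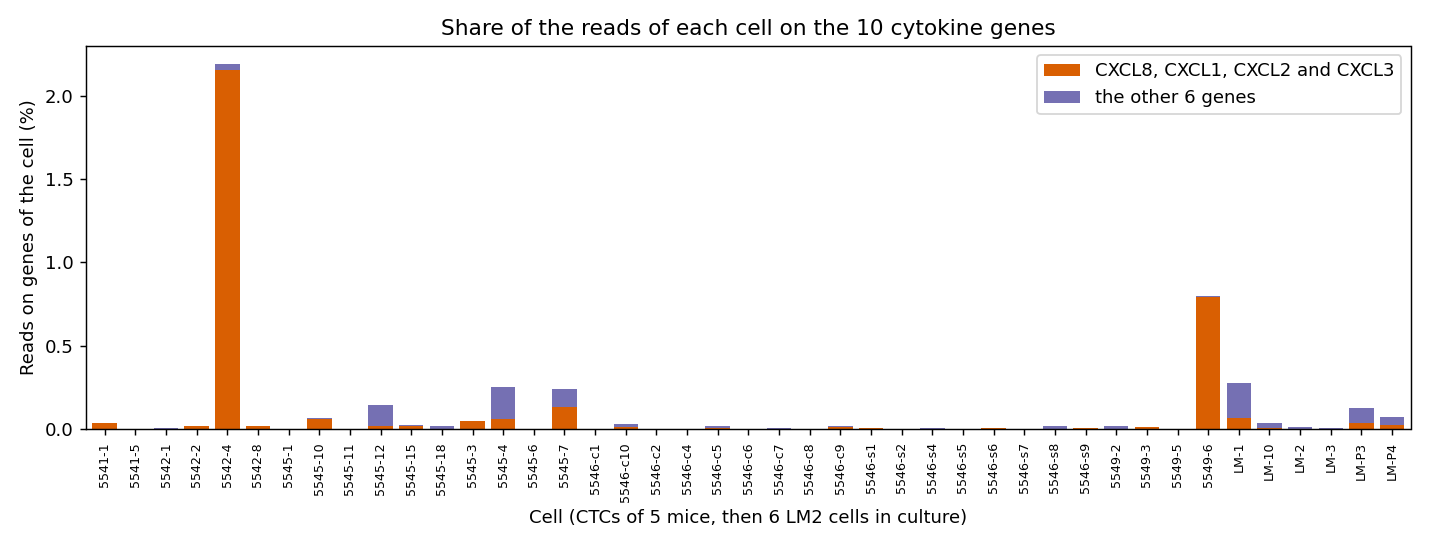
Percentage of the reads on genes of each cell that fell on the 4 CXCL genes (orange) and on the other 6 genes (purple), for 37 CTCs and 6 cultured cells. CTC 5542-4 reaches 2.19% and 5549-6 0.796%, nearly all of it on CXCL genes, whereas LM-1 at 0.278% has mostly other genes.

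The 4 CXCL genes were detected together in 6 CTCs, while 7 CTCs had none of them. Over the 6 pairs of these genes, ρ over 37 CTCs ranged from 0.397 to 0.578 with a median of 0.452, and the other 39 pairs of the 10 genes had a median of 0.128. Without 5542-4 and 5549-6 these medians were 0.330 and 0.110. Among the other pairs, IL6 with LIF (0.539) and IL6 with CXCL2 (0.525) were in the range of the CXCL pairs. The likeness of the CXCL pairs differed between mice. Their ρ ranged from 0.118 to 0.865 in mouse 5545. In mouse 5546 it ranged from -0.257 (CXCL2 with CXCL3) to 0.557 (CXCL1 with CXCL3), and CXCL8 with CXCL1 was at -0.037. CXCL1, CXCL2 and CXCL3 are close copies, with 90.7% to 94.4% identity between their coding sequences, against 54.8% to 56.1% with CXCL8. Only uniquely mapped reads were counted, and windows of 75 bases shared with another of the 4 transcripts made up 0.273% of CXCL1, 2.498% of CXCL2 and 2.30% of CXCL3 (with windows of 50 bases, 5.33%, 10.1% and 5.26%). Reads within such stretches could have been left out or split between the 3 genes. Only identical windows among the 4 transcripts were counted, so these shares do not bound the uncertainty of the single values. Of the other genes of the cluster on chromosome 4 with a value, PF4V1 reached 23.2 in a CTC, PF4 4.10 and PPBP 1.47, and all 3 were at 0 in culture.

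CXCL8 lies at chr4:73740519-73743716, CXCL1 at chr4:73869393-73871308, CXCL3 at chr4:74036589-74038807 and CXCL2 at chr4:74097040-74099196 (GRCh38, GENCODE 44). The other genes lie elsewhere, IL1B at chr2:112829751-112836816, IL1A at chr2:112773925-112784493, IL6 at chr7:22725884-22732002, LIF at chr22:30240453-30246759, IL11 at chr19:55364382-55370463 and CSF2 at chr5:132073789-132076170. To compare levels between genes, means were divided by the summed exon length in kb. In culture CSF2 (248.9 normalized counts per kb), IL1B (237.0) and CXCL1 (166.6) led, followed by CXCL8 (38.7), CXCL2 (31.98), IL6 (16.6), IL11 (9.66), LIF (7.23), IL1A (3.44) and CXCL3 (2.91). In the mean over mice the order began with CXCL2 (415.3 per kb), CXCL8 (250.1), CXCL3 (142.0) and CXCL1 (134.4), and IL6 (18.5), CSF2 (10.5), IL1B (7.54), LIF (4.04), IL11 (0.0700) and IL1A (0.0397) came after. The SD over mice was larger than the mean for all of the 10 genes except LIF (15.7 ± 15.1 normalized counts, SD, n = 5), so neighbors in this order were not resolved.

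The libraries of mouse 5546 carried the letter c or s in their names, which the sources used here do not explain. IL6 was detected in 6 of 9 c libraries and 0 of 8 s libraries. The count of 0 allows a share of up to 37.5% (3 of 8), with counting error only and within 1 mouse. LIF was detected in 3 and 0, IL1A in 1 and 0, CXCL2 in 7 and 3, IL1B in 5 and 2, CXCL8 in 4 and 1, CXCL1 in 3 and 1, CXCL3 in 4 and 3, and CSF2 in 3 and 2. IL11 was detected in 2 c libraries and 3 s libraries. The mean of IL1B was higher in the s libraries (33.3) than in the c libraries (7.70), with 198.4 in 5546-s8. The c libraries had 7782 to 12299 genes detected and the s libraries 4656 to 7538, and the part of this difference in the detection of cytokines was not tested. Leaving out the s libraries left the same 3 genes meeting the rule, IL1B, IL11 and CSF2.

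The genes whose levels over the 37 CTCs were most like the sum of log2 values of the 10 genes, among 7012 genes detected in at least 50% of CTCs, were ATP6V1F (ρ = 0.694), GFPT2 (0.690), RANGAP1 (0.677), EMG1 (0.674) and ADK (0.664). For CXCL8 they were SLC36A4 (0.606), BRAF (0.586), NUP35 (0.579), DAGLB (0.561) and MCTP1 (0.548). The median ρ over all genes compared was 0.155 with the sum and 0.0554 with CXCL8. These genes are the highest of 7012 by selection, and how high ρ would reach by chance was not assessed, so nothing is read from them. For the genes named with CXCL8, ρ ranged from 0.346 (SLC36A4) to 0.712 (BRAF) in mouse 5545. In mouse 5546 it ranged from 0.329 (DAGLB) to 0.652 (BRAF).

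Other genes of the pathways were compared by limma on the 5 mouse means against the culture mean, on log2(mean + 1), which assumes that the single culture profile varies as the mice do. Of 109 genes in 8 lists, 99 had a value and 84 passed the filter of a mean of at least 1. None of the 84 passed an adjusted p of 0.05 in either direction with limma, and 8 had an unadjusted p under 0.05. With edgeR, which tested 88 of the genes, 0 passed and 3 had an unadjusted p under 0.05, and with DESeq2, which tested 99, 0 passed and 4 did. Over all 12290 genes tested with limma, 0% were lower and 0.00814% higher, which is 1 gene, PAEP. The median log2 difference of the 84 genes was -1.51 and 72 were negative, beside a median of -1.30 over all genes. The sign of these medians turned with the scaling and the fit, since edgeR on summed reads gave 0.16 for the pathway genes and 0.31 for all genes, and DESeq2 gave 0.26 and 0.64. The named genes below are values, none of which passed the test.

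**Figure D5:**
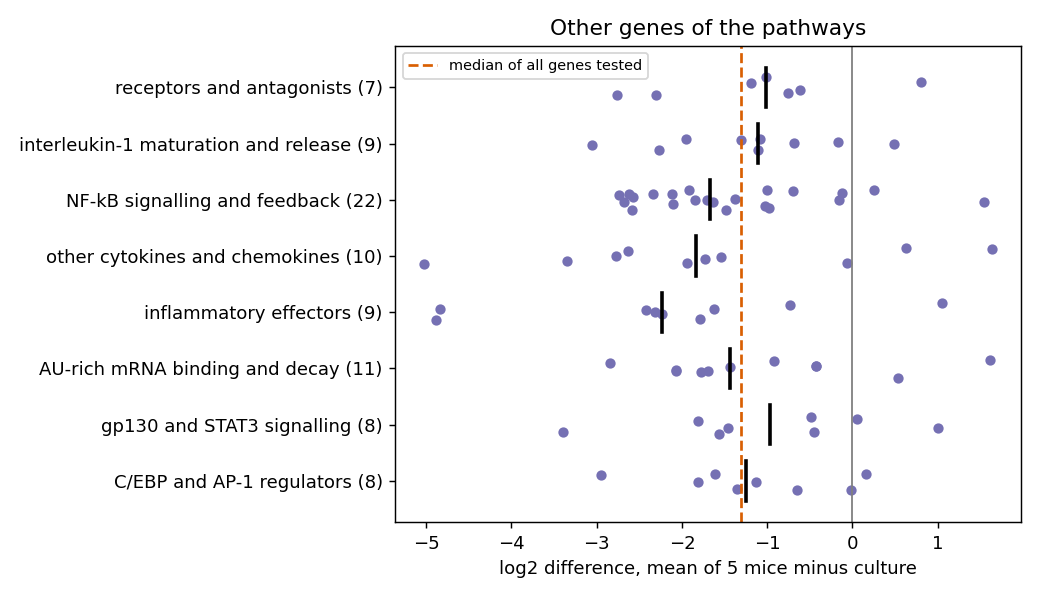
Log2 difference between the mean of 5 mice and the culture (horizontal axis) for the genes tested in 8 lists (rows, number of genes in parentheses). Points are genes, black bars list medians and the dashed line the median of all genes tested at -1.30 with limma (0.31 with edgeR and 0.64 with DESeq2); the list medians lie between -2.23 and -0.97, around the dashed line.

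Of 13 receptors and antagonists, 12 had a value, 7 were tested, and 0 passed. The shared receptor IL6ST was 74.3 ± 33.2 in CTCs (mean of mouse means, SD, n = 5) and 117.3 in culture, OSMR, the oncostatin M receptor, was 16.7 ± 15.8 and 17.2, and IL1RAP, the accessory chain for IL-1, was 8.47 ± 6.59 and 10.7. IL11RA was 3.32 ± 4.86 and 10.9, LIFR 3.23 ± 3.22 and 6.37, and IL6R 0.485 ± 0.834 and 8.18. IL1R1, the signaling receptor of IL-1, was detected in 0 of 37 CTCs and in 2 cultured cells with a mean of 1.27 over all 6. The count of 0 allows a share of up to 8.11% (3 of 37). That limit covers counting error only, because CTCs of 1 mouse are not independent. CXCR1 and CXCR2, the receptors of the chemokines, were at 0 in culture and had means of 1.40 and 1.12 over mice, with the highest values of 21.6 in 5549-6 and 59.8 in 5546-s9. The decoy receptor IL1R2 (mean of 0.263), the antagonist IL1RN (1.01, from CTC 5546-s7 alone) and CSF2RB (0.00960) were also at 0 in culture. CSF2RA was not analysed here.

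Of the 24 other cytokines and chemokines, 17 had a value, 10 were tested and 0 passed. CSF3, which encodes G-CSF, the growth factor of neutrophils, was high in part of the culture and in 1 CTC. It was 3627 in LM-10, 2855 in LM-1, 1123 in LM-P4, 965.1 in LM-P3 and 0 in LM-2 and LM-3, and in CTCs it was 6288 in 5542-4, which held 78.8% of the sum, while 5549-6 had only 15.0. The mouse means of CSF3 were 0.281 in 5541, 28.6 in 5546, 39.8 in 5549, 61.2 in 5545 and 1682 in 5542, against 1428 in culture. IL18 was 32.7 ± 41.4 in CTCs and 56.4 in culture, and CLCF1, another gp130 cytokine, was 18.4 ± 9.83 and 46.2. IL24, named after its values were seen, was detected in 0 of 37 CTCs and in 2 cultured cells with a mean of 9.16.

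Of 22 NF-κB genes 0 passed. NFKBIA, the inhibitor that NF-κB itself induces, was 594.0 ± 409.2 in CTCs and 374.9 in culture, and was 3482 in 5549-6 and 3412 in 5542-4, the 2 CTCs with the highest CXCL levels, against a median of 247.5 over CTCs. NFKBIZ, a nuclear member of the same family, was 103.0 ± 138.7 and 41.6, with 1307 in 5542-4 and 278.1 in 5549-6 against a median of 7.31. BIRC3, named after its values were seen, was 536.3 and 815.9 in these cells against a median of 11.4. IRAK1, a kinase of the IL-1 receptor path, was 82.4 ± 66.2 and 275.4. NFKBIA, NFKBIZ and BIRC3 were thus high in the same 2 CTCs as the chemokines. Further targets of NF-κB, named after their values were seen, were less uniform. TNFAIP3 was 0 in 5542-4 and 28.3 in 5549-6, against a median of 0 over CTCs and a highest cultured value of 7.96, and it was highest in 5546-c10 at 82.6. ICAM1 was 0 in 5542-4 and 1.67 (1 read) in 5549-6.

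The remaining lists had 0 genes past the threshold. Of 9 genes of IL-1 maturation and release, ANXA2 was 9903 ± 2505 in CTCs and 6862 in culture, CAPN2, a calpain, was 291.1 ± 100.2 and 1056, and S100A13, which takes part in IL1A release, was 117.9 ± 54.0 and 115.3. Of 13 inflammatory effectors, 11 had a value and 9 were tested. PLAU (urokinase) was 862.9 ± 404.8 and 1336, MMP1 (a collagenase) 590.1 ± 870.9 and 182.1, and PTGES (prostaglandin E synthase) 30.1 ± 29.1 and 459.9. MMP1 was detected in only 5 CTCs, and 5542-4 held 49.5% of the sum. Its mouse means were 1947 in 5541, 991.4 in 5542, 6.46 in 5545, 5.18 in 5546 and 0 in 5549. The log2 difference of MMP1 was therefore negative, at -2.23, although its mean was higher in CTCs. Among 11 genes that bind AU-rich mRNA or act on its decay, ZFP36L1 was 189.1 ± 81.2 and 121.6, HNRNPD 93.2 ± 37.8 and 367.2, and DUSP1, the MAPK phosphatase listed with them, 914.7 ± 573.7 and 245.1. Among 8 gp130 and STAT3 genes, STAT3 was 67.9 ± 59.9 and 146.9, JUNB 64.3 ± 31.3 and 80.0, and MCL1 58.7 ± 35.2 and 71.4. Among 9 C/EBP and AP-1 regulators, FOSL1 was 549.8 ± 356.5 and 1302, CEBPB 119.9 ± 130.7 and 77.1, and FOS 94.4 ± 64.2 and 123.7. A higher mean in CTCs with a negative log2 difference was also seen for NFKBIA (-0.123), S100A13 (-0.174) and CEBPB (-0.0185).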

How the data were processed

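Single-cell RNA-seq values of 37 CTCs and 6 cultured LM2 cells were used. The deposited values are a signal, namely read counts per gene that the authors scaled with DESeq2 1.42.1 size factors. The authors aligned reads with STAR 2.7.10a to GRCh38 with GENCODE 38, kept uniquely mapped reads, counted without strand, and left out CTCs with few uniquely mapped or many mitochondrial reads, so that 4 of 41 labeled CTCs have no values. The alignment settings include an exact UMI deduplication option although SMARTseq2 has no UMIs, so whether duplicate reads were collapsed, and thus whether a recovered read is 1 of several copies, is not known. No sample label used here names a batch that differs between samples. The paper chose the number of amplification cycles for each set of cells, and differences in processing between CTCs and culture were not tested. Whole reads were recovered by taking the lowest value above 0 in a cell as 1 read, which made 100% of values whole (tolerance 0.001). Gene names were taken from GENCODE 44, which matched 25565 of 25739 identifiers.

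Groups came from the sample labels, and no columns were identical. The 10 genes, the gene lists and the rules were chosen with earlier results of these data known. Named genes are the 10, all receptors and antagonists, the 3 genes of each other list with the highest mean (none passed the test), and the 5 genes most like the sum and CXCL8. Marker genes are named where their values stand beside a result. limma 3.58.1 with trend was fitted to log2(mean + 1) of 12290 genes with Benjamini-Hochberg adjustment, and edgeR 4.0.16 and DESeq2 1.42.0 to reads summed per mouse as alternatives. The other alternatives were other pseudocounts, averages, filters and minimum values, CPM, thinning, and leaving out mice, cultured cells, s libraries or single CTCs. The steps were tested on simulated data. P-values, where cells of a mouse are averaged, measure the spread between 5 mice. Python 3.11.15 and R 4.3.3 were used.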

Additional observations from a re-analysis of the deposited data

Results flagged for a closer look

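The values below stand far from the others of their group of 4 to 10 values, by the gap to the nearest value divided by the range of the group (Dixon's test at the 95% level). Chance alone would mark about 1 in 20 groups, and 27 of 45 groups were marked here, in data with many values at 0 where a single detected cell is marked. No explanation was tested.

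Among the CTCs of mouse 5542, 5542-4 stood apart for IL1B (302.6), CXCL8 (10735), CXCL1 (2647), CXCL2 (8050) and CXCL3 (2834). Among those of mouse 5549, 5549-6 stood apart for CXCL8 (1745), CXCL1 (817.6), CXCL2 (2336) and CXCL3 (2887), 5549-2 for LIF (137.3) and 5549-3 for CSF2 (0.561, the value of 1 read). Among those of mouse 5545, 5545-4 stood apart for CXCL8 (485.7) and CSF2 (250.3), 5545-7 for CXCL1 (202.8) and CXCL3 (782.7), 5545-12 for IL1B (29.8) and 5545-15 for IL11 (1.34). Among the cultured cells, LM-1 stood apart for IL1B (3105) and CXCL1 (861.4), and LM-P3 for IL1A (30.9) and IL11 (61.7).

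Among the means of the 5 mice, 5542 stood apart for IL1B (83.1), CXCL8 (2684) and CXCL2 (2073), 5545 for IL6 (362.8) and CSF2 (38.8), and 5546 for IL1A (0.400).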

How the results depend on the processing

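The count of the 10 genes that met the rule of size as lower was 3, and leaving out each mouse or each cultured cell in turn gave 1 to 4, with the 1 without LM-1. The count as higher was 0, and leave-one-out gave 0 to 1, with the 1, CXCL3, without mouse 5546. The other alternatives gave 2 to 4 lower and 0 higher. IL1B, IL11 and CSF2 had a negative mean log2 ratio in 22 of 22 settings, and so did IL1A, IL6, CXCL1 and LIF. The median of all genes was itself negative, at -1.30 with the deposited size factors. Relative to that median in the same setting, IL1B, IL11, CSF2 and IL6 were negative in 22 settings and IL1A, CXCL1 and LIF in 20. CXCL8, at 0.23 before this subtraction, was negative in 8 of 22 settings, with a range of -5.10 (median over cells) to 1.27. The settings without CTCs 5542-4 and 5549-6, without 5549-6 or without 5545-6, and CPM for limma, were chosen after seeing the data. For limma, the 0 pathway genes lower in CTCs became 1 with a pseudocount of 8 and 5 with no filter on low values, and the 0 of all genes became 74 and 1800. The 1 gene higher in CTCs became 0 with edgeR and 14 with DESeq2, and leave-one-out gave 0 to 1. The cause was not tested. No paired analysis was possible because the numbers in the labels name picked cells and the culture is 1 sample.

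The culture is 1 sample of 6 cells, and 2 mice gave 4 CTCs and 1 gave 2, so a single cell can set a mouse mean. This also held for CXCL3 in mouse 5545 with 10 CTCs, where 5545-7 was at 782.7 and the median was 0. Values near 1 read cannot separate low expression from none.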
